A study of Bos taurus with 5 samples.

Results

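Messenger RNA of 7 genes of connective tissue was compared between the walls of the largest (F1) and second-largest (F2) bovine ovarian follicles. The genes were COL1A2, DCN, BGN, LUM, FBN1, SPARC and CALD1, and each was taken through the single array probe that carries its bovine RefSeq mRNA accession. They are 7 of the 1364 probes, among 10163, that could be paired with a gene symbol. The follicles came from 4 pregnant Japanese Black cows that received no treatment described in the labels, and age was not given. Stroma and theca externa were dissected away, the follicles were snap-frozen, and Cy3-labelled RNA of each follicle was hybridized to an array of its own, giving 3 arrays of F1 and 2 arrays of F2. Part of the cows contributed a follicle to each group, and the sources used here do not name which, so the follicles were treated as independent. A p-value below therefore concerns these 5 follicles only. The stage of the follicular wave at collection was not controlled, so F1 and F2 are groups of size rank alone.

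The wall of an antral follicle has an inner avascular layer of granulosa cells, a basal lamina, and the theca, a vascular layer held together by fibroblast-like cells and their matrix. In such tissue fibrils of collagen I give tensile strength. Small leucine-rich proteoglycans such as decorin, biglycan and lumican bind collagen and regulate how fibrils assemble, fibrillin-1 builds the microfibrils on which elastin is laid down, SPARC is a collagen-binding secreted glycoprotein, and caldesmon ties actin to myosin in contractile cells. Since RNA was taken from granulosa and theca interna together, fewer cells of a type and less RNA per cell cannot be told apart.

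What the array measures is hybridization to 1 stretch of each mRNA, so the first 30 of the 60 bases of every probe are shown, 5′ to 3′ as in the scanner files, with stop triplets (TAA, TAG or TGA in any frame) in capitals.
COL1A2: agggaagttTAAaacccaaacttccaaagg
DCN: agaaaaccctcatttttaTAAcctggcaaa
BGN: gggtttcaaaccatcacacccagctTGAgg
LUM: aaagcatggattacatgcatatggatgttt
FBN1: atgTAGcTAAgctaccttgtcatatgtgtt
SPARC: tcgttcacctccaagcatttcaTGAaaaag
CALD1: agaaatgttcatggTAAaagtactgccttt
Over the 60 bases, a stop triplet stood in all 3 forward frames of the FBN1 probe and in 2 of those of COL1A2, DCN, BGN and SPARC. It stood in 1 frame of CALD1 and in 0 of LUM. GC content was between 35.0% and 40.0% for 6 of the probes and 55.0% for BGN. No other probe among the 10163 shared 20 bases in a row with any of them on either strand. The RefSeq gene table (assembly ARS-UCD2.0, used for names and gene order alone) lists 16 transcripts for CALD1 and 2 or 3 for each of the others, so the CALD1 probe may read only part of that gene's transcripts. DCN and LUM are direct neighbours among protein-coding genes in that table.

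Signals are given as the processed signal divided by the median of the 100 GAPDH spots of the same array, and a signal is a level of 1 probe that was not set against that of another probe. The GAPDH median lay between 868.7 and 1411.2. The scanner software flagged 5465 to 5855 probes of an array as well above background. All 7 probes carried this flag on all 5 arrays, so none entered the test through 1 group alone. SPARC was saturated, that is at the upper limit of the scanner, on 2 arrays. F1 and F2 were compared on log2 signals with limma over 5528 probes, with Benjamini-Hochberg adjustment over all of them and a threshold of 0.05. limma draws the variance of each probe toward a value fitted over all tested probes. Its p-values and intervals therefore do not rest on a gene's own spread between follicles alone. Differences are F1 minus F2, so a negative value is a higher level in F2. The median difference of all 5528 probes was 0.27 when arrays were scaled to GAPDH and 0.06 when they were scaled to their 75th percentile, so differences relative to the median of all probes are given as well.

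Lumican and caldesmon mRNA were higher in the F2, by 3.04-fold and 3.8-fold, and were the 2 of 7 genes that passed the test. Over all tested probes 5.08% passed as higher in the F2 and 6.39% as higher in the F1, or 11.5% in either direction, and none of the 7 genes passed as higher in the F1. Mean log2 levels of 6 of the 7 genes were higher in the F2, against 33.9% of all tested probes, and the exception was COL1A2. Of the 6 genes saturated on no array, LUM, FBN1 and CALD1 were higher in both F2 than in all 3 F1, a pattern found in 15.9% of the tested probes saturated on no array. SPARC showed it as read, as did 15.7% of all tested probes, but its order rests on saturated spots. The reverse pattern was found in 33.4% of all tested probes and in 0 of the 7 genes. The median difference of the 7 genes was -0.79, against 0.27 for all tested probes. With 3 follicles against 2, an exact permutation test of a single gene cannot give a p-value below 0.1.

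**Figure D1:**
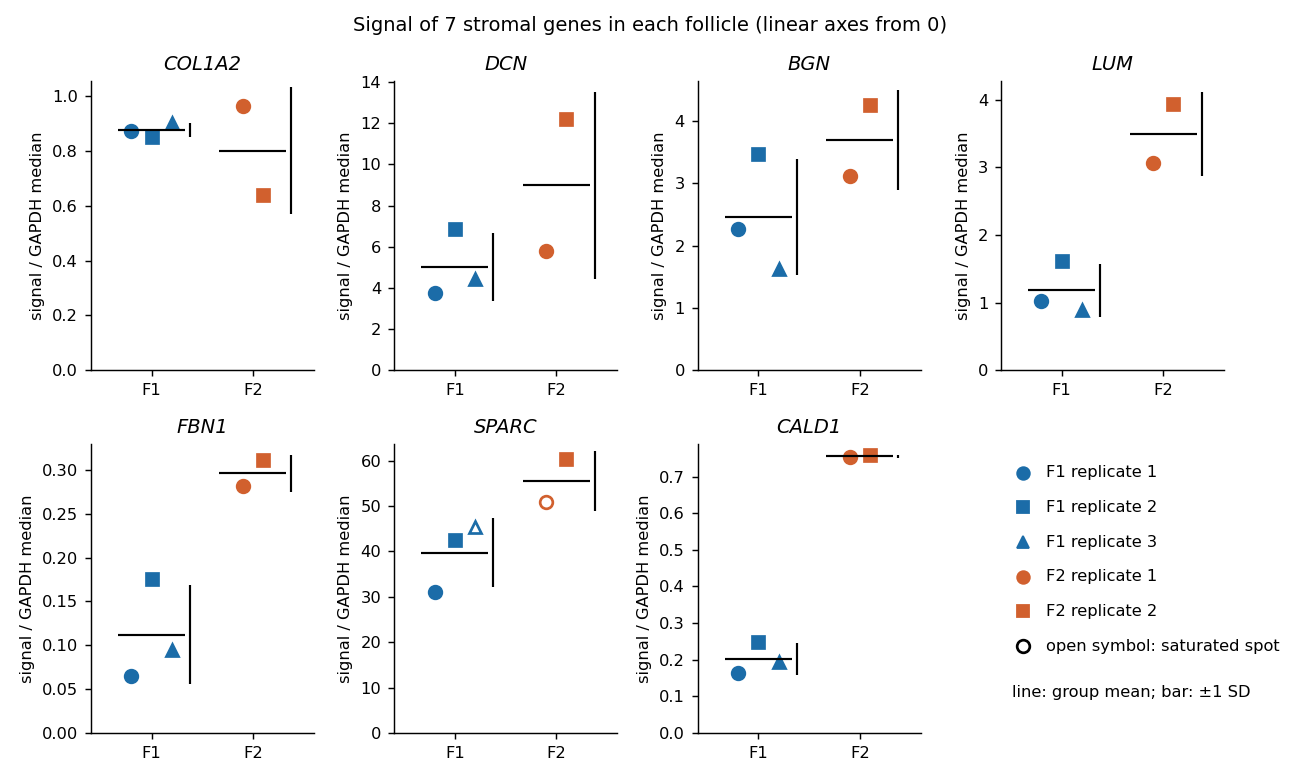
Signal of each of the 7 genes in each follicle, as the ratio to the GAPDH median of its array on linear axes that start at 0. Symbols are single follicles, horizontal lines are group means, vertical bars are ±1 SD (n = 3 F1 and n = 2 F2) and open symbols are saturated spots. The F2 lie above every F1 for LUM, FBN1 and CALD1, the groups overlap for COL1A2, DCN and BGN, and for SPARC the order of the open symbols is unsettled.

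COL1A2, which encodes the alpha 2 chain of collagen I, had signals of 0.871, 0.851 and 0.901 in F1 replicates 1, 2 and 3 and of 0.964 and 0.638 in F2 replicates 1 and 2. The F1 lay close together and between the F2. The highest F1 signal was 1.06 times the lowest, and the SD of the log2 signal in the F1 was 0.041, against a median of 0.353 over all tested probes. The software's own error for these spots was at most 10.3% of the signal and wider than the spread of the F1. The difference of 0.16 (95% interval -0.56 to 0.87) did not pass (limma adjusted p = 0.752). Its sign rested on the scale, being -0.05 with the 75th percentile, -0.11 with quantile normalization and -0.12 relative to the median of all probes, and on the follicles, being -0.14 without F2 replicate 2. A change of up to 0.87 in size is within this interval.

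Decorin and biglycan are closely related proteoglycans that carry chondroitin or dermatan sulfate chains. DCN had signals of 3.74, 6.87 and 4.41 across the F1 follicles against 5.77 and 12.2 across the F2 follicles. F1 replicate 2 stood above F2 replicate 1, so the groups overlapped. The mean was 5.01 ± 1.65 (SD, n = 3) for F1 against 8.99 ± 4.55 (SD, n = 2) for F2, a difference of -0.79 (95% interval -1.86 to 0.27, limma adjusted p = 0.278). DCN differed 2.12-fold between the 2 F2, the widest gap between F2 among the 7 genes, and without F2 replicate 2 its difference was -0.25. Relative to the median of all probes it was -1.07. With normexp background correction, a model of background added to signal, DCN passed the test (difference -0.94, limma adjusted p = 0.0265). That fit gave each of the 7 genes the same standard error, 0.32, so its p-values do not measure a gene's own spread between follicles.

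BGN had signals of 2.26, 3.47 and 1.63 across the F1 follicles against 3.12 and 4.26 across the F2 follicles. As for DCN, F1 replicate 2 was the highest F1 and exceeded F2 replicate 1. The difference was -0.64 (95% interval -1.59 to 0.31, limma adjusted p = 0.319), or -0.91 relative to the median of all probes.

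Lumican, a keratan sulfate proteoglycan of the same family, set the groups apart more clearly. LUM had signals of 1.02, 1.62 and 0.896 across the F1 follicles against 3.06 and 3.93 across the F2 follicles. The lower F2 was above the highest F1. The mean was 1.18 ± 0.386 (SD, n = 3) against 3.49 ± 0.621 (SD, n = 2), a difference of -1.61 (95% interval -2.46 to -0.75, limma adjusted p = 0.037), or -1.88 relative to the median of all probes. The size of this difference held between -1.86 and -1.42 with each follicle left out, but the call did not. The limma adjusted p was 0.112 without F1 replicate 1, 0.0809 without F1 replicate 3, 0.206 without F2 replicate 1 and 0.183 without F2 replicate 2, and 0.0281 without F1 replicate 2. It was also lost with no filter on weak probes (0.145), where 10162 probes are tested and the variances are fitted anew.

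Fibrillin-1 forms the core of extracellular microfibrils. FBN1 had a weak spot, with a software error of 21.2% of the signal in F1 replicate 1 and of 10.3% to 12.6% in the other follicles. Its signals were 0.0654, 0.175 and 0.0951 across the F1 follicles against 0.282 and 0.311 across the F2 follicles. Both F2 were above every F1, and the F1 spread 2.67-fold, the widest range among the F1 for any of the 7 genes. The difference of -1.53 (95% interval -2.60 to -0.45) did not pass (limma adjusted p = 0.0788), although the unadjusted p of the limma fit was 0.0128. It passed without F1 replicate 2, the highest F1 (difference -1.91, limma adjusted p = 0.0296). With normexp background correction the difference shrank to -0.87 and passed (limma adjusted p = 0.0493). The standard error fell from 0.45 to the 0.32 shared by the 7 genes in that fit, so this p-value does not measure the spread of FBN1 itself.

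SPARC had signals of 31.1, 42.5 and 45.4 across the F1 follicles against 50.9 and 60.3 across the F2 follicles. The spots of F1 replicate 3 and F2 replicate 1 were saturated, so the true levels of those follicles may lie above the values given. Before scaling, these spots read 64130 and 63910, so the order of their scaled values comes from the GAPDH medians and whether the groups overlap cannot be told. Both F2 were above F1 replicates 1 and 2, whose spots were not saturated. The difference as read was -0.50 (95% interval -1.22 to 0.22, limma adjusted p = 0.308), and saturation in 1 follicle of each group leaves its size uncertain.

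CALD1, which encodes caldesmon, an actin-binding and myosin-binding regulator of contraction, had the largest difference of the 7 genes. Its signals were 0.163, 0.248 and 0.194 across the F1 follicles against 0.753 and 0.759 across the F2 follicles. The 2 F2 were nearly equal, within 1.01-fold and closer than the software error of about 10.1% to 10.2% of each signal, and both were over the F1 range. The mean was 0.202 ± 0.0427 (SD, n = 3) against 0.756 ± 0.00384 (SD, n = 2), a difference of -1.93 (standard error 0.30, 95% interval -2.64 to -1.21, limma adjusted p = 0.0116). The difference stayed between -2.09 and -1.78 with each follicle left out. The call was lost without F2 replicate 1 (limma adjusted p = 0.133) and without F2 replicate 2 (0.0926), where a single F2 is taken to vary like the F1. With normexp the difference was -1.34 and passed (limma adjusted p = 0.000449), on the standard error that the 7 genes shared in that fit.

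A second caldesmon probe, made to the expressed sequence tag BP101259 and entered as smooth muscle caldesmon in the study's list of genes with large differences on these arrays, is not among the 7. Its signals were 0.00791, 0.087 and 0.0401 across the F1 follicles against 0.249 and 0.397 across the F2 follicles. Its signal cleared background in 2 of the 3 F1 follicles, replicate 1 being the exception, so it entered the test through the F2 alone. The F1 spread 11-fold down to that unflagged signal, which leaves the size of the difference uncertain. Here too both F2 were above every F1, with a difference of -3.38 (standard error 0.95) that did not pass (limma adjusted p = 0.0721). Because the probe was listed for its difference on these arrays, its direction is not independent evidence for CALD1.

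**Figure D2:**
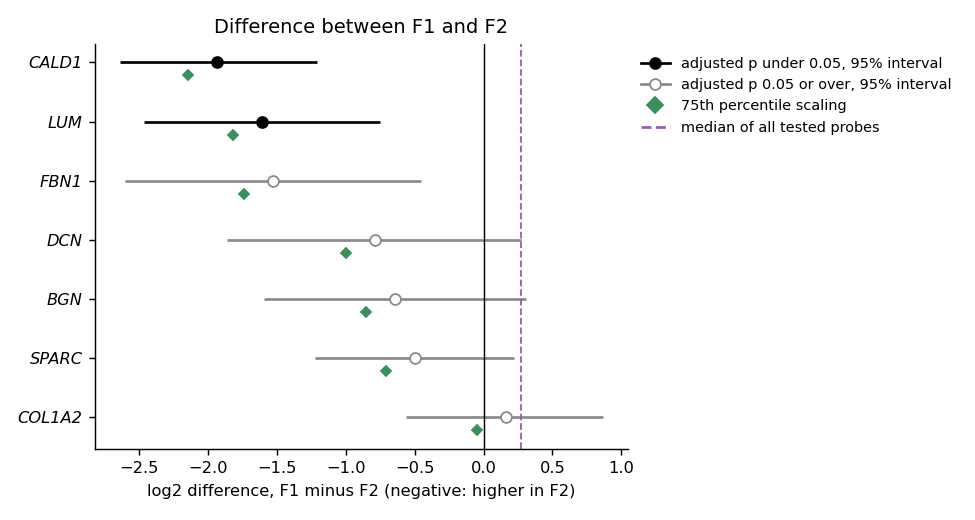
Log2 difference F1 minus F2 of each gene from limma with its 95% interval, filled where the adjusted p was under 0.05, and the same difference after 75th percentile scaling (green diamonds). The dashed line is the median of all tested probes at 0.27. CALD1 and LUM lie farthest to the left, at -1.93 and -1.61, and COL1A2 at 0.16 changes sign with the scaling.

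The 7 genes did not share 1 pattern over the follicles. Likeness was measured as the root-mean-square difference of 2 genes' log2 signals over the 5 follicles, each gene first set to its own mean. Between LUM and CALD1 it was 0.259, between LUM and FBN1 0.281, and between FBN1 and CALD1 0.33. DCN and BGN were 0.311 apart. COL1A2 was at least 0.454 from every other of the 7 genes, its nearest being SPARC as read, and 1.06 from CALD1. Distances of SPARC include its saturated spots. The neighbours DCN and LUM were 0.477 apart. These distances describe 5 follicles and carry no test.

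F1 replicate 2 had the highest F1 signal for 5 of the 7 genes, the exceptions being COL1A2 and SPARC. It was the highest F1 in 46.7% of all tested probes. F2 replicate 2 was above F2 replicate 1 for 6 of the 7 genes, all but COL1A2 and with SPARC as read, but this also held for 79.0% of all tested probes, so it is no property of these genes.

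**Figure D3:**
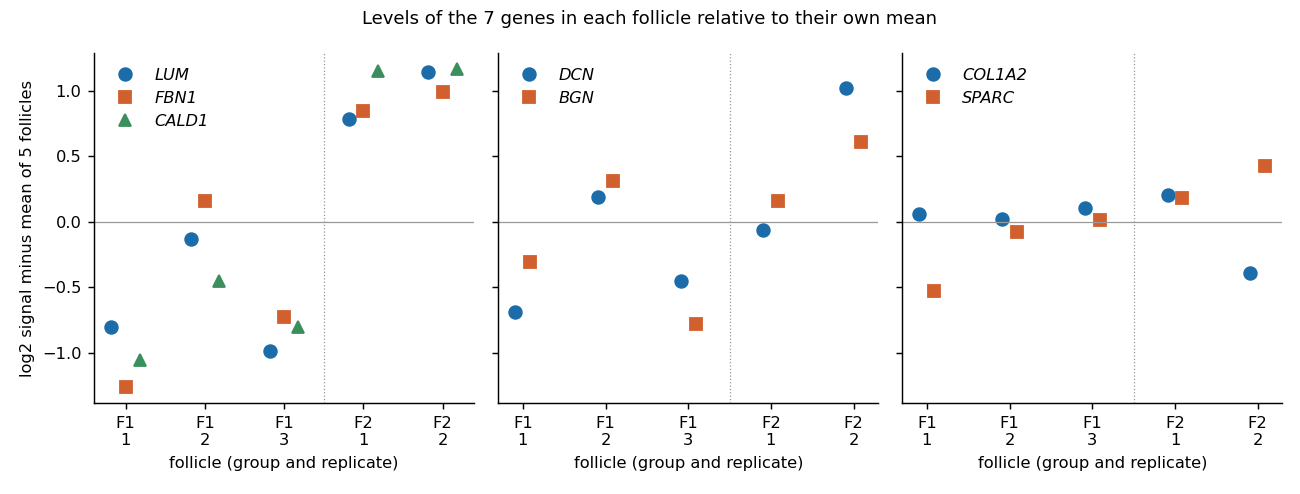
Log2 signal of each gene in each follicle minus the gene's mean over the 5 follicles, in 3 panels. The third panel holds the remaining genes, COL1A2 and SPARC, and is not a grouping by likeness. SPARC was 0.454 from COL1A2 but 0.381 from DCN and 0.416 from BGN. Its spots in F1 replicate 3 and F2 replicate 1 were saturated and are not marked here. LUM, FBN1 and CALD1 are high in both F2, DCN and BGN overlap between the groups with F1 replicate 2 above F2 replicate 1, and COL1A2 is nearly level in the F1.

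A ratio between 2 probes of the same array does not depend on how arrays are scaled, so DCN, BGN, LUM, FBN1 and CALD1 were also taken relative to COL1A2. This subtracts the COL1A2 difference of 0.16 from each log2 difference, so the directions follow from the values above and only the spread and the overlap are new. The ratio of CALD1 to COL1A2 was 4.24-fold higher in the F2, that of LUM 3.39-fold and that of FBN1 3.21-fold. The lower F2 ratio was 2.69, 1.67 and 1.42 times the highest F1 ratio for these 3 genes. The ratios of DCN and BGN, 1.93-fold and 1.74-fold higher in the F2, overlapped between the groups. Ratios to COL1A2 that were higher in the F2 without overlap were found for 784 of the other 5527 probes, or 14.2%. The exact permutation test, 2-sided on the difference of means, gave p = 0.1 for LUM and CALD1, the smallest it can give, 0.2 for FBN1 and 0.3 for DCN and BGN.

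For each gene, the probes with a symbol that followed it most closely over the 5 follicles were taken from 728 probes well above background on all arrays. Nearest to COL1A2 were DHRS4 (root-mean-square log2 difference 0.101) and ATP6AP1 (0.118). Nearest to DCN were IGIP (0.082) and NR2F1 (0.105), the latter encoding a COUP-TF nuclear receptor. IGIP had signals of 0.0798, 0.134 and 0.0791 across the F1 follicles against 0.114 and 0.247 across the F2 follicles, and like DCN it was highest in F2 replicate 2, then in F1 replicate 2, then in F2 replicate 1. Nearest to BGN were S100A13 (0.084) and MYH10 (0.141), which encodes a non-muscle myosin heavy chain. LUM was followed most closely by BASP1 (0.124) and PTGDS (0.23), and FBN1 by LGMN (0.133), the lysosomal protease legumain, and ARHGDIB (0.171). SPARC was nearest to CNP (0.113) and to LOC282255 (0.143). The nearest to CALD1 were SULT1A1 (0.148), a sulfotransferase, and TMSB10 (0.192), which encodes the actin-binding thymosin beta 10. SULT1A1 had signals of 0.145, 0.204 and 0.154 across the F1 follicles against 0.801 and 0.694 across the F2 follicles, and TMSB10 of 0.552, 1.04 and 0.715 across the F1 follicles against 2.83 and 2.13 across the F2 follicles. The median distance over the 728 probes was 1.12 from CALD1, 1.02 from FBN1 and 0.972 from LUM. It was 0.723 from DCN, 0.607 from BGN, 0.573 from SPARC and 0.488 from COL1A2. The named probes were picked as the nearest of 728, so short distances are partly due to that choice.

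Other genes of matrix and contraction were drawn from 7 lists. Of 161 listed genes besides the 7, 40 were on the array and 28 were tested. Among these 28, 4 passed as higher in the F2, 2 passed as higher in the F1 and 22 did not pass. Over all tested probes 5.08% passed as higher in the F2 and 6.39% as higher in the F1. The median difference of the 28 was -0.26, against 0.27 for all tested probes. No gene of the basal lamina list was on the array under a matched symbol.

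Among proteoglycans, the large hyaluronan-binding VCAN (versican) moved opposite to LUM. Its signals were 4.08, 2.41 and 2.49 across the F1 follicles against 0.236 and 0.409 across the F2 follicles, a difference of 3.22 (standard error 0.39, limma adjusted p = 0.00493). The call was lost without F2 replicate 1 (0.105) and with no filter on weak probes (0.0677). FMOD (fibromodulin), like lumican a keratan sulfate member of the leucine-rich family, had signals of 1.27, 1.90 and 1.70 across the F1 follicles against 1.38 and 1.92 across the F2 follicles, which overlapped (difference -0.02, limma adjusted p = 0.966). OMD (osteomodulin), of the same family, had 0.083, 0.0495 and 0.0658 across the F1 follicles against 0.0257 and 0.0299 across the F2 follicles, higher in every F1 but short of the threshold (difference 1.22, limma adjusted p = 0.0593). The other collagen tested, COL2A1, had a difference of 0.75 (limma adjusted p = 0.165).

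In the list of elastic fibre and matricellular proteins, 2 of the 7 tested genes besides FBN1 and SPARC passed, both higher in the F2. MGP, the matrix Gla protein that inhibits calcification, had signals of 3.68, 11.2 and 4.06 across the F1 follicles against 30.4 and 50.3 across the F2 follicles (difference -2.83, limma adjusted p = 0.0252). THBS1 (thrombospondin 1), an antiangiogenic matrix glycoprotein, had 0.404, 0.986 and 0.454 across the F1 follicles against 2.59 and 4.31 across the F2 follicles (difference -2.56, limma adjusted p = 0.0214). In both genes F1 replicate 2 was the highest F1, as for LUM and FBN1. Both calls were lost without F1 replicate 1, F1 replicate 3, F2 replicate 1 or F2 replicate 2, with limma adjusted p between 0.0699 and 0.208 for MGP and between 0.0632 and 0.176 for THBS1, and with no filter (0.166 and 0.149). MFAP2, a microfibril component that binds fibrillin, had signals of 3.68, 4.39 and 3.48 across the F1 follicles against 6.99 and 8.81 across the F2 follicles and fell short of the threshold (difference -1.03, limma adjusted p = 0.065). CCN2, a matricellular protein, had 1.05, 2.74 and 1.75 across the F1 follicles against 2.82 and 5.83 across the F2 follicles, higher in both F2 but not past the test (difference -1.24, limma adjusted p = 0.169). The microfibril and elastic fibre genes MFAP5 and ELN overlapped between the groups, with differences of -0.20 and -0.14, and LTBP2, with a difference of -0.46, did not pass either (limma adjusted p = 0.334).

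Genes that process or cross-link collagen did not move one way. PLOD1, a lysyl hydroxylase that modifies collagen chains, was higher in the F1, with signals of 11.6, 9.84 and 10.7 against 4.98 and 4.75 (difference 1.13, limma adjusted p = 0.0416). This call was lost with each follicle left out, at 0.0762 to 0.167, and at 0.0682 with the 75th percentile, 0.0588 with quantile normalization and 0.0832 with the replicate block. LOXL4 was higher in the F2, with 0.0435, 0.0474 and 0.045 against 5.32 and 0.428 (difference -5.06, limma adjusted p = 0.0227). Without F2 replicate 1 its difference was -3.24 and without F2 replicate 2 it was -6.88, and the call was lost without F1 replicate 1 (0.065), F1 replicate 3 (0.0718) or the filter (0.181). With normexp its difference was -3.56 and passed, with a standard error of 0.32 against 0.96 in the main fit. The chaperone PPIB and the transglutaminase TGM2 did not pass (differences 0.47 and -0.06). Of the 7 tested matrix proteases and inhibitors 1 passed, the inhibitor TIMP1. Its signals were 0.533, 0.675 and 0.542 across the F1 follicles against 14.3 and 7.52 across the F2 follicles (difference -4.16, limma adjusted p = 0.00126). TIMP2 had a difference of 1.01 (limma adjusted p = 0.0909) and MMP2 of -0.53 (limma adjusted p = 0.288).

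CALD1 was the only one of 4 tested genes in the contractile and actin list to pass. MYL6, a myosin light chain, had signals of 23.4, 24.8 and 19.3 across the F1 follicles against 33.6 and 27.8 across the F2 follicles (difference -0.45, limma adjusted p = 0.32). VIM, the intermediate filament of mesenchymal cells, had 4.27, 5.99 and 4.42 across the F1 follicles against 4.30 and 5.67 across the F2 follicles (difference -0.03, limma adjusted p = 0.956). No gene of the list of smooth muscle and pericyte markers was on the array under a matched symbol.

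**Figure D4:**
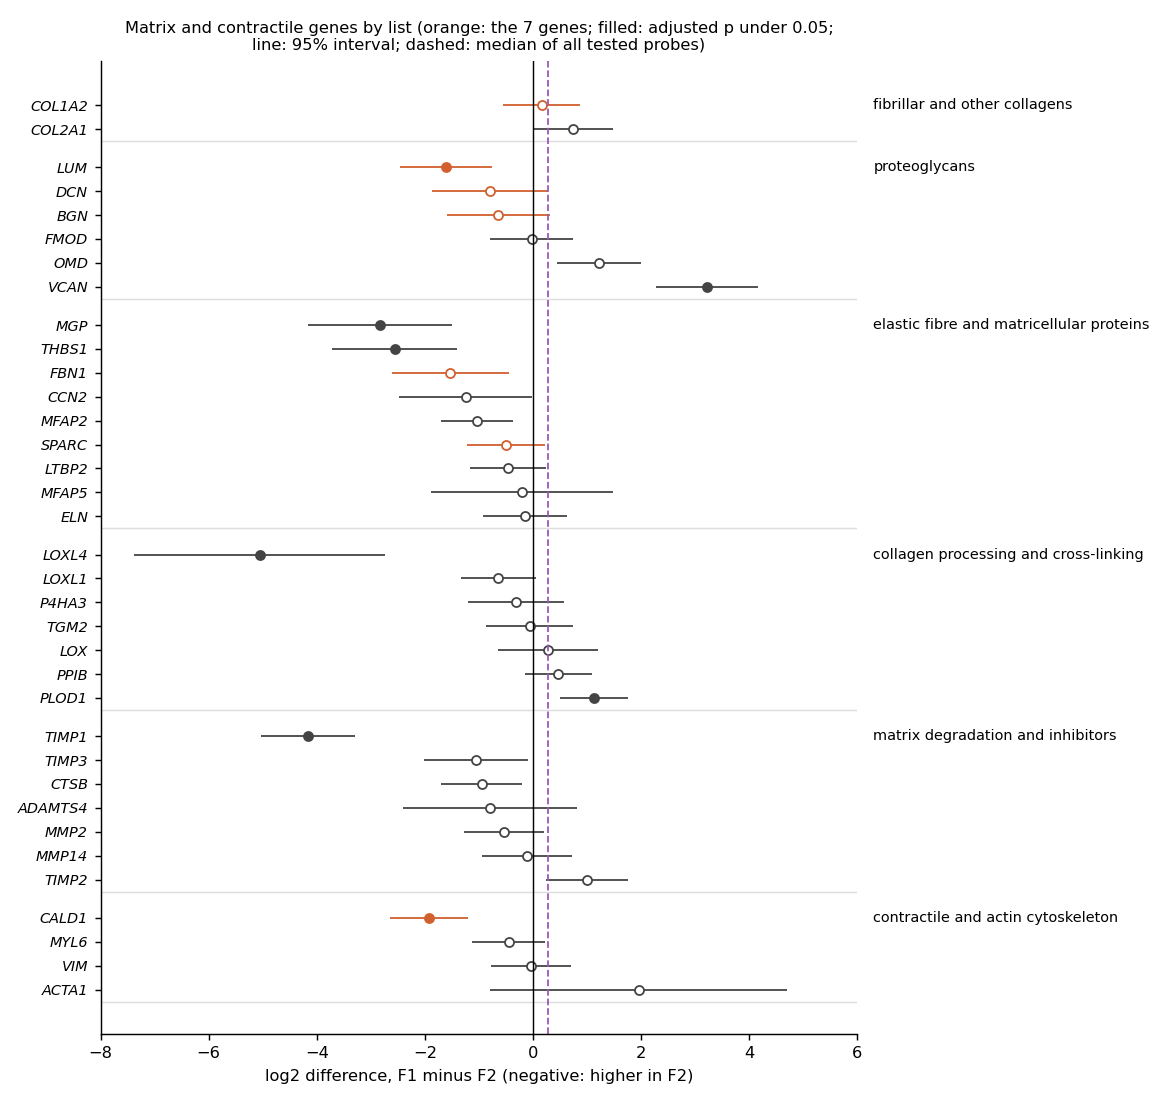
Log2 difference F1 minus F2 with its 95% interval for every tested gene of 6 matrix and contractile lists, ordered within each list, with the 7 genes in orange and filled symbols where the adjusted p was under 0.05. Values lie from -5.06 for LOXL4 to 3.22 for VCAN, and the dashed line marks the median of all tested probes at 0.27.

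Markers of other cells of the wall differed between the groups in part, and their role in the differences above was not tested. The shares of all tested probes that passed, for comparison, were 6.39% as higher in the F1 and 5.08% as higher in the F2. All 6 granulosa cell markers on the array passed as higher in the F1, and their summed signal was 173 to 237 over the F1 follicles and 6.84 to 6.86 over the F2. INHA and INHBA were saturated on all 3 F1 arrays and FST on 2 of them, so the F1 sums are lower limits. FSHR, the follicle-stimulating hormone receptor, lacked the flag for signal above background in both F2, and CYP19A1, aromatase, had it in 1 F2 only. Both genes thus entered the test through the F1 alone. The summed signal of 6 theca cell markers was 69.3 to 105 over the F1 follicles and 30.1 to 33.3 over the F2. INSL3 made up much of the F1 sums and was saturated on 2 F1 arrays, so these too are partly lower limits. Of the theca markers 3 passed as higher in the F1 and 3 did not pass. CYP17A1, the theca enzyme of androgen synthesis, passed with levels measured in every follicle (difference 3.95, limma adjusted p = 0.00132), INSL3 passed despite saturation, and LHCGR was not well above background in any F2, so it entered the test through the F1 alone and the floor sets its difference. STAR, which carries cholesterol into mitochondria, ran the other way and did not pass, with 5.56, 3.14 and 5.33 across the F1 follicles against 16.1 and 9.91 across the F2 follicles (limma adjusted p = 0.0593). STAR, CYP11A1 and LHCGR are also made by granulosa cells of large follicles, so they do not mark the theca alone. The 6 endothelial markers summed to 0.156 to 0.25 over the F1 follicles and 0.763 to 1.11 over the F2, but this gap was that of SELP, the 1 of 4 tested that passed. Without SELP the sums overlapped, at 0.113 to 0.166 over the F1 follicles and 0.127 to 0.249 over the F2, and CDH5 and SELE were not well above background on any array. The 3 leukocyte markers summed to 0.866 to 0.939 over the F1 follicles and 1.3 to 1.6 over the F2. Most of these sums came from ITGB2, which did not pass (limma adjusted p = 0.217). Without ITGB2 the sums were 0.0351 to 0.0488 over the F1 follicles and 0.137 to 0.174 over the F2. CD14 passed as higher in the F2 (difference -1.66, limma adjusted p = 0.0208). CD3E also passed, but it was well above background in 0 of 3 F1 and entered the test through the F2 alone, so the floor sets its difference. HBB, the erythrocyte marker on the array, was not well above background on any array.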

How the data were processed

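Follicular wall RNA of 3 F1 and 2 F2 was measured on 5 one-color arrays, 1 follicle each. The authors extracted spots with Agilent Feature Extraction (9.5.3.1 per the file headers). The deposited scanner files give the intensity of each spot, as a background-subtracted processed signal with its error, a raw mean and a local background, and flags. The authors also deposited a table of the ratio of each processed signal to its array's GAPDH median, which the scanner values matched within 0.0005. All columns of values could be assigned to a follicle.

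Each processed signal was taken relative to the GAPDH median, raised to a floor of 0.001 of it and transformed to log2. Control and GAPDH spots and 1 probe with an outlier flag were left out, while saturated spots stayed in. A probe was tested if all arrays of F1, or all of F2, had it well above background. The test was limma (3.58.1, under R 4.3.3; lmFit, then eBayes) without a block, adjusted by Benjamini-Hochberg over all tested probes. The fit was checked on simulated data. The exact permutation test used scipy 1.17.1. The number of arrays limits the precision.

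The 7 genes, the lists, the floor and the tests were chosen with earlier results of these data known. Listed genes were named where they passed the test or were among the 2 of a list, the 7 genes included, with the highest mean log2 signal that did not. FMOD, OMD, CCN2, MFAP5, ELN, LTBP2 and the cell markers were named after their values had been seen. Symbols came from RefSeq accessions, 1364 of 1415 being matched, and list genes known to the array only under other accessions are not analysed here. Alternatives were 75th percentile (floor 0.001 of that percentile) or quantile scaling, normexp with an offset of 50, the authors' values, a floor of 0.01, other filters, no saturated probes, an intensity trend, a replicate block and each follicle left out.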

Additional observations from a re-analysis of the deposited data

How the results depend on the processing

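Over 15 alternatives, 100 of 103 values of the 7 genes kept their direction and 84 also their side of the threshold. COL1A2, at 0.16, turned to -0.05 when scaled to the 75th percentile, to -0.11 after quantile normalization and -0.14 without F2 replicate 2. SPARC was not among the probes tested with the authors' values or without saturated probes. With normexp each of the 7 genes had the same standard error, 0.32, so calls under normexp do not rest on a gene's own spread. DCN passed with normexp (-0.94). FBN1 passed with normexp (-0.87) and, at -1.53, in the authors' values, with a floor of 0.01, when only probes detected on all 5 arrays were tested, and with an intensity trend. With no filter the calls of LUM (-1.61) and CALD1 (-1.93) were lost. With each follicle left out the difference ranged from -0.14 to 0.45 for COL1A2, -1.33 to -0.25 for DCN, -0.92 to -0.38 for BGN, -1.86 to -1.42 for LUM, -1.91 to -1.20 for FBN1, -0.62 to -0.33 for SPARC and -2.09 to -1.78 for CALD1.

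Of the 7 genes, 2 passed as higher in the F2, against 4 with normexp, 0 with no filter, 1 with the replicate block and 0 to 3 with each follicle left out, and 0 passed as higher in the F1 under every alternative run. The count was 0 without F2 replicate 1, without F2 replicate 2 and with no filter, where 1053, 1385 and 1842 probes of the whole table had an unadjusted limma p under 0.05, and it was 3 without F1 replicate 2. Over all probes, 281 passed as higher in the F2, against 462 with quantile normalization, 113 with no filter and 77 to 312 with each follicle left out. As higher in the F1 353 passed, against 101 with no filter and 54 to 279 with each follicle left out. Among the other matrix and contractile genes, 4 passed as higher in the F2, against 7 under either 75th percentile scaling or quantile normalization, 1 with no filter and 1 to 4 with each follicle left out. As higher in the F1 2 passed, against 3 under each of normexp, the authors' values, a floor of 0.01, detection on all 5 arrays and an intensity trend. That count was 1 under each of 75th percentile scaling, quantile normalization, no filter and the replicate block, and with each F1 left out. It was also lower without F2 replicate 1. Leaving out a follicle or testing more probes changes the test by construction. With no filter the standard errors changed as well, from 0.30 to 0.21 for CALD1 and from 0.35 to 0.33 for LUM. Whether the altered fit or the number of probes cost the calls was not tested. For the other alternatives the cause was not tested either.

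Nothing in the labels says that follicles sharing a replicate number belong together. Their deviations from the group means had a correlation of 0.0389 for number 1 and 0.13 for number 2. The deviations of the 2 F2 are mirror images of each other, so these values cannot show whether follicles of the same number belong together. A fit with the replicate block, in which F1 replicate 3 has no partner and so adds nothing to the difference, gave LUM -1.43 (limma adjusted p = 0.0554) and CALD1 -1.91 and changed no other call among the 7 genes.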
